A study of Rattus norvegicus with 2 samples.

Results

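The insulin-like growth factor (IGF) family comprises 2 ligands, 2 receptors and 6 binding proteins, and its transcripts were compared between mesenteric arteries of portal hypertensive and sham-operated rats. The family was taken as 10 genes chosen by name (Igf1, Igf2, Igf1r, Igf2r and Igfbp1 to Igfbp6), and every probe set annotated to exactly 1 of them was used. A probe set is a group of short oligonucleotides on the array that together report 1 transcript. These were 24 probe sets of 9 genes, out of 8799 probe sets on the array, which name 4736 genes once control probe sets are set apart. No probe set was named for Igfbp4, which was not analysed here.

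The tested rats had prehepatic portal hypertension, produced by partial ligation of the portal vein, and the control rats had a sham operation. Arteries of the first and second order, the small muscular branches that feed the intestine, were pooled from 20 rats in each group, and the RNA of each pool went onto a single Affymetrix RG_U34A array. Strain, sex, age and the time between operation and sampling are not stated in the labels. With 1 array per group there is no replicate, so no difference below has a p-value, an SD or a standard error, the number of arrays limits the precision, and each comparison is of 2 pools.

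Values are linear signal intensities. The floor was the 40th percentile of all values on both arrays, 330.9, and a probe set above it in both pools is called measured. Without control probe sets there were 8740, of which 4960 were measured, and 59.4% of the 8740 were above the floor in the portal hypertensive pool and 60.6% in the sham pool. As a yardstick of spread between probe sets, log2 ratios of probe sets of the same gene scattered around the gene's mean with an SD of 0.30 (1801 probe sets of 789 genes). This leaves out all differences between rats. It also leaves out any technical difference between the arrays that all probe sets of a gene share. The scatter of the ratio depended on signal. Measured probe sets were split by mean signal into a low class (1654 sets, up to 984), a middle class (1653 sets) and a high class (1653 sets, from 3107 on), in which the SD of the log2 ratio was 0.40, 0.34 and 0.28. The hybridization records note 12.5 µg of labelled cRNA and fluidics module 1 for the portal hypertensive array, and 17 µg and module 2 for the sham array, both amounts with a question mark. These cannot be told apart from the operation.

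IGF-I and IGF-II are secreted peptides related to insulin. Both signal through the tyrosine kinase receptor encoded by Igf1r, whereas the Igf2r product, which also binds mannose 6-phosphate, takes IGF-II up and delivers it to lysosomes. The binding proteins hold most extracellular IGF, lengthen its life and limit or aid its access to the receptor. In the vessel wall, IGF-I is known as a growth and survival factor for smooth muscle cells.

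The data show a family that differed little at the level of its receptors and of Igf2. Igfbp3 and Igfbp6 had signals 1.39-fold and 1.36-fold higher in the portal hypertensive pool. Igf1 was measured on 5 probe sets, which ranged from 0.81 to 3.48 times the sham signal. Igfbp2 had a pair of measured probe sets that went opposite ways. Igfbp1 and Igfbp5 lay below the floor in both pools.

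In the rat, 4 of the binding protein genes lie as neighbouring pairs. According to RefSeq annotation of the assembly GRCr8, Igfbp1 and Igfbp3 are adjacent coding genes on chromosome 14, and Igfbp2 and Igfbp5 are adjacent on chromosome 9, each pair on opposite strands. Igfbp6 and Igf1 lie on chromosome 7, though not next to each other, and Igf2, Igf1r and Igf2r on chromosome 1. The promoters of the neighbours Igfbp1 and Igfbp3 are shown because the first did not reach the floor in either pool and the second was measured and higher in the portal hypertensive pool. The promoter of Igfbp6 is shown because it was the other binding protein with a higher signal. Each sequence is the 250 bases before the annotated start, from RefSeq (GRCr8), 5′ to 3′ on the gene's strand, with motif matches in capitals.
Igfbp1, chr14:86261027-86261276, plus strand: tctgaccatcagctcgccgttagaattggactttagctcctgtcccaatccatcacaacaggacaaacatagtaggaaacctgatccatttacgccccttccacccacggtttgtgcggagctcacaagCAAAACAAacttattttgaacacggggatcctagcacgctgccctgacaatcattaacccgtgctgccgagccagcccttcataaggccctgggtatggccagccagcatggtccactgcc
Igfbp3, chr14:86277945-86278194, minus strand: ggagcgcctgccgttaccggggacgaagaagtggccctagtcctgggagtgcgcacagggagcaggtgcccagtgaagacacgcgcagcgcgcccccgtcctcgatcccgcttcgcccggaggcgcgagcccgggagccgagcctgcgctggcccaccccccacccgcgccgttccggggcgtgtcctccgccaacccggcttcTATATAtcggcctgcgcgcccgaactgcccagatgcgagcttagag
Igfbp6, chr7:135154669-135154918, plus strand: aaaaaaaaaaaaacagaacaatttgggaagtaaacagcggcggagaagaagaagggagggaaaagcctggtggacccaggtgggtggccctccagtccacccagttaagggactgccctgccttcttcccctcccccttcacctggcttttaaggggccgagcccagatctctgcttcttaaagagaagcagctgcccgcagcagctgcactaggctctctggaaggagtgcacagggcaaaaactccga

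Motifs were searched on both strands as TATAAA or TATATA (the TATA box), GGGCGG (the GC box) and CAAAACAA, the core of the element through which insulin is known to repress Igfbp1. The insulin response core was present once in the Igfbp1 window, starting 121 bases before the start, and it occurs in 1.94% of 33469 rat promoter windows of the same length. Within the family the Igf1 window held it too, 67 bases before the start. A TATA match was present once in the Igfbp3 window, 46 bases before the start, as in 16.1% of all windows. The Igfbp4 window held one as well, 40 bases before the start, and none of the 3 motifs was found in the Igfbp6 window. The GC box, which 30.5% of all windows hold, was in none of the 3. The Igfbp3 window had 71.6% G and C, the Igfbp6 window 54.8% and the Igfbp1 window 52.8%. These matches describe the letters of the windows only.

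**Figure D1:**
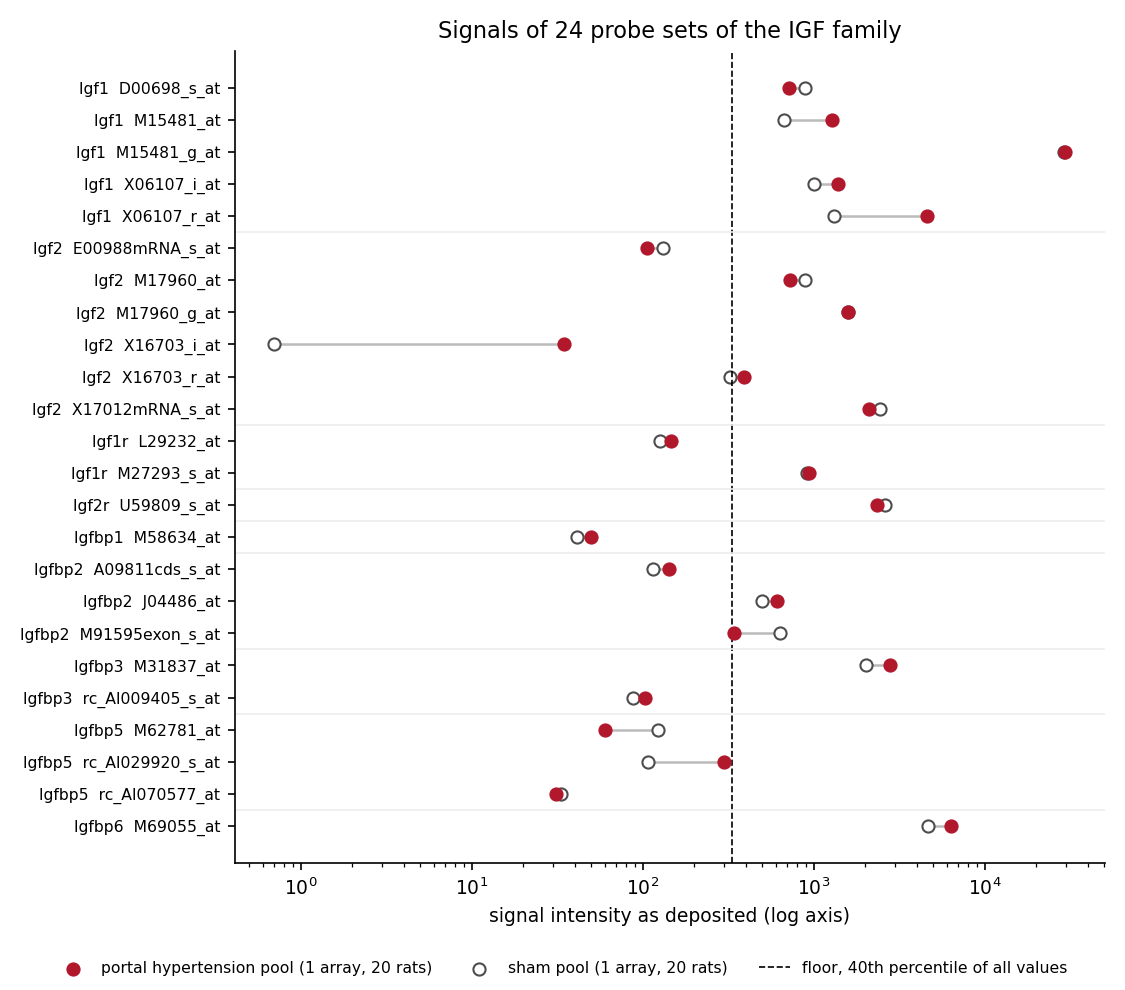
Signal intensity (log axis) of each of the 24 IGF family probe sets in the portal hypertensive pool (filled) and the sham pool (open), 1 array each, with the floor of 330.9 as a dashed line. The Igf1 probe set X06107_r_at has the widest separation above the floor, 4586.7 against 1319.2, and all probe sets of Igfbp1 and Igfbp5 lie left of the line.

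Among the ligands, Igf1 was measured on each of its 5 probe sets. Suffixes in probe set names mark, in the array maker's naming, sets that were chosen under relaxed rules or may match more than 1 transcript, and 4 of the 5 Igf1 sets carry one. Probe set M15481_g_at gave signals of 29578.5 in the portal hypertensive pool and 28907.5 in the sham pool. Its partner M15481_at, designed from the same sequence record, gave 1270.7 in the portal hypertensive pool and 668.4 in the sham pool. The first of this pair was therefore nearly level between pools and the second 1.90-fold higher in the portal hypertensive pool. Probe set X06107_r_at gave 4586.7 in the portal hypertensive pool against 1319.2 in the sham pool, and X06107_i_at gave 1383.7 against 1003.9. Probe set D00698_s_at went the other way, with 712.5 in the portal hypertensive pool and 884.3 in the sham pool. Thus 4 of 5 probe sets were higher in the portal hypertensive pool and 1 was lower.

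The log2 ratio (portal hypertensive over sham) came to 1.80 on X06107_r_at, 0.93 on M15481_at, 0.46 on X06107_i_at, 0.03 on M15481_g_at and -0.31 on D00698_s_at. The gene value for Igf1, the median over its probe sets, was 0.46, or 1.38-fold. X06107_r_at had the second highest ratio of all 4960 measured probe sets and the highest of the 1653 in the middle signal class. That ratio was not shared by the other sets of the gene, and the spread of 2.11 between the highest and the lowest Igf1 ratio was matched or exceeded in 2 of 43 genes with 4 or more measured probe sets, Igf1 itself included, whose median spread was 0.56. The ratios on X06107_r_at and X06107_i_at differed by 1.33, which was the largest difference among 9 such pairs on the array. The ratios on M15481_g_at and M15481_at differed by 0.89, and 16 of 470 pairs named in this way differed by as much, against a median of 0.21. The size of a difference in Igf1 was therefore not settled by these probe sets: the gene value was 0.93 with suffixed probe sets left out and 0.03 when the probe set of highest signal stood for the gene.

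Igf2, the ligand best known as a fetal growth factor and imprinted gene, was measured on 3 of 6 probe sets. Probe set X17012mRNA_s_at gave 2104.6 in the portal hypertensive pool and 2440.6 in the sham pool, M17960_at gave 727.6 and 892.4, and M17960_g_at gave 1593 and 1588.4, in the same order. Their log2 ratios were -0.21, -0.29 and 0.00, all smaller than the probe set scatter of 0.30. X16703_r_at was above the floor only in the portal hypertensive pool, at 389 against 325.3 in the sham pool, which makes it at least 1.18-fold higher there. The other probe sets, E00988mRNA_s_at with 106 in the portal hypertensive pool and 131.1 in the sham pool, and X16703_i_at with 34.4 and 0.7, were below the floor in both pools. The gene value was -0.10, and the Igf2 probe sets scattered less than those of Igf1, with a spread of 0.30 over the 3 measured sets against a median of 0.43 in 133 genes with as many.

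The receptor genes differed between pools by less than the probe set scatter. Igf1r, the signalling receptor of both ligands, gave 933.5 in the portal hypertensive pool and 909.2 in the sham pool on probe set M27293_s_at, a log2 ratio of 0.04. Its other probe set, L29232_at, was below the floor, with 146.2 in the portal hypertensive pool and 126 in the sham pool. Igf2r, the clearance receptor of IGF-II, gave 2350.7 in the portal hypertensive pool against 2622.5 in the sham pool on its single probe set U59809_s_at, a log2 ratio of -0.16.

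Of the binding proteins, Igfbp3 and Igfbp6 were higher in the portal hypertensive pool, each on a single measured probe set. Igfbp3 encodes the main carrier of IGF in blood, which is also made locally in many tissues. On M31837_at it gave 2800.3 in the portal hypertensive pool and 2009.4 in the sham pool, a log2 ratio of 0.48. Its other probe set, rc_AI009405_s_at, was below the floor, with 102.4 in the portal hypertensive pool and 87.9 in the sham pool. Igfbp6 encodes a binding protein with a marked preference for IGF-II, and on M69055_at it gave 6362 in the portal hypertensive pool and 4673.9 in the sham pool, a log2 ratio of 0.44. Both were higher in the portal hypertensive pool by more than the probe set scatter of 0.30 and by less than 1.5-fold. In the middle signal class, 87 of 1653 probe sets had a ratio at least as high as that of Igfbp3, and in the high class 74 of 1653 had one at least as high as that of Igfbp6, each count including the gene's own set.

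Igfbp2 encodes a binding protein abundant in the fetus and in the blood of adults. Probe set M91595exon_s_at gave 342.6 in the portal hypertensive pool, close to the floor, and 631.4 in the sham pool, a log2 ratio of -0.88. Probe set J04486_at gave 611.5 in the portal hypertensive pool and 499.7 in the sham pool, a log2 ratio of 0.29. Its remaining set, A09811cds_s_at, was below the floor at 142 and 115, in the same order. The 2 measured sets thus pointed opposite ways, 1.17 apart on the log2 scale, a gap that 9 of 613 genes with 2 measured probe sets reached, Igfbp2 included, and their median of -0.30 has no settled direction: it was 0.29 when the probe set of highest signal was used or suffixed sets were left out, and 0.29 with the floor at the 20th percentile.

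Igfbp1 and Igfbp5 were not measured. Igfbp1, which the liver makes and insulin represses, gave 50.1 in the portal hypertensive pool and 41.2 in the sham pool on M58634_at. Of 8 hepatocyte marker genes on the array, 3 had a probe set measured in both pools, with summed signals of 1922.8 in the portal hypertensive pool and 1901.7 in the sham pool. Igfbp5, a binding protein that also attaches to extracellular matrix, gave 299.3 in the portal hypertensive pool and 106.6 in the sham pool on rc_AI029920_s_at, 59.9 and 122.7 on M62781_at, and 30.9 and 33.2 on rc_AI070577_at. All 3 sets lay below 330.9 in both pools, so no fold is given for this gene, and the first set, although higher in the portal hypertensive pool, was not matched by the other 2.

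**Figure D2:**
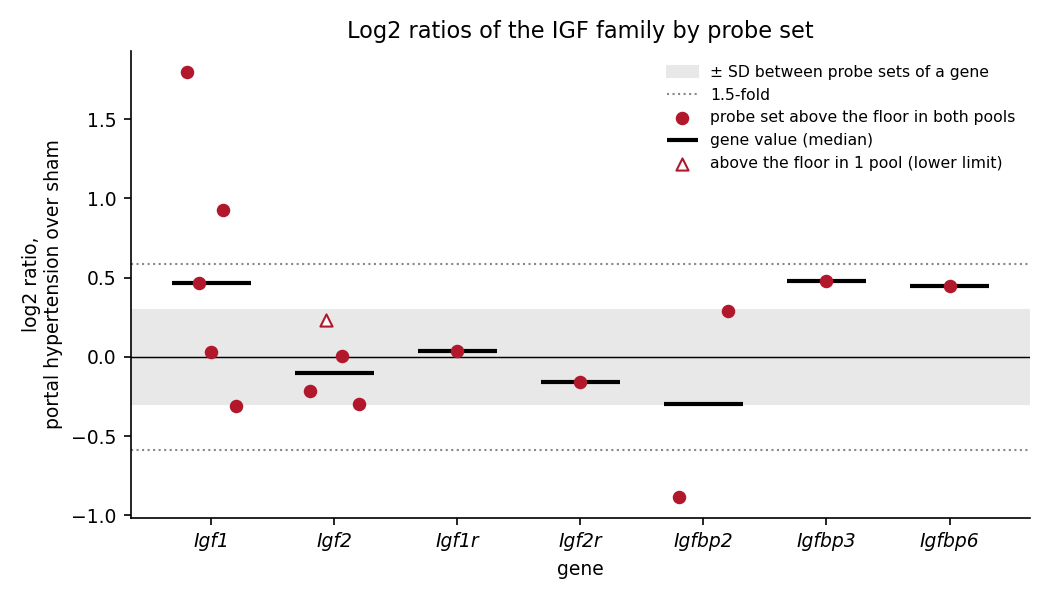
Log2 ratio of portal hypertensive over sham signal for each probe set of the 7 IGF family genes with a value. Points are probe sets, black bars gene medians, the grey band ± the probe set scatter (SD) of 0.30 and dotted lines 1.5-fold, and the Igf1 points run from -0.31 to 1.80 while all Igf2, Igf1r and Igf2r points lie inside the band.

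Set against the whole array, the family's gene values lay on both sides of 0. Of the 14 measured family probe sets, 3 differed by at least 1.5-fold, against 8.49% of all measured probe sets, and they were X06107_r_at and M15481_at of Igf1, both higher in the portal hypertensive pool, and M91595exon_s_at of Igfbp2, lower there. Only X06107_r_at, 1 of the 14, passed 2-fold, against 1.35% of all. By gene, 0 of 7 with a value passed 1.5-fold, where 8.18% of 3351 genes did, and 0 passed 2-fold, where 1.1% did. The family's median gene value was 0.04, with 4 genes above 0 and 3 below, next to -0.02 over all genes, of which 46.8% were above 0. With suffixed probe sets left out, Igf1 passed 1.5-fold, as did 229 of 2816 genes. The family median was then 0.44 over 5 genes, without Igf1r and Igf2r. With a floor at the 20th percentile Igfbp5 passed 1.5-fold, as did 634 of 4193 genes, and the median was 0.37 over 8 genes. These medians cover other genes and probe sets than the 0.04, so they do not show a shift of the same genes. Within the family, 3 genes, Igf1, Igfbp3 and Igfbp6, had gene values beyond the scatter of 0.30, and 4 lay within it. Of these 4, Igfbp2 was lower in the portal hypertensive pool and only just inside, at -0.295 against a scatter of 0.296. The 3 genes beyond the scatter were higher in the portal hypertensive pool, Igf1 by a gene value that its probe sets did not settle. The share of all genes beyond 0.30 was not counted, so this count does not set the family apart. Log2 ratios of all measured probe sets had an SD of 0.35.

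**Figure D3:**
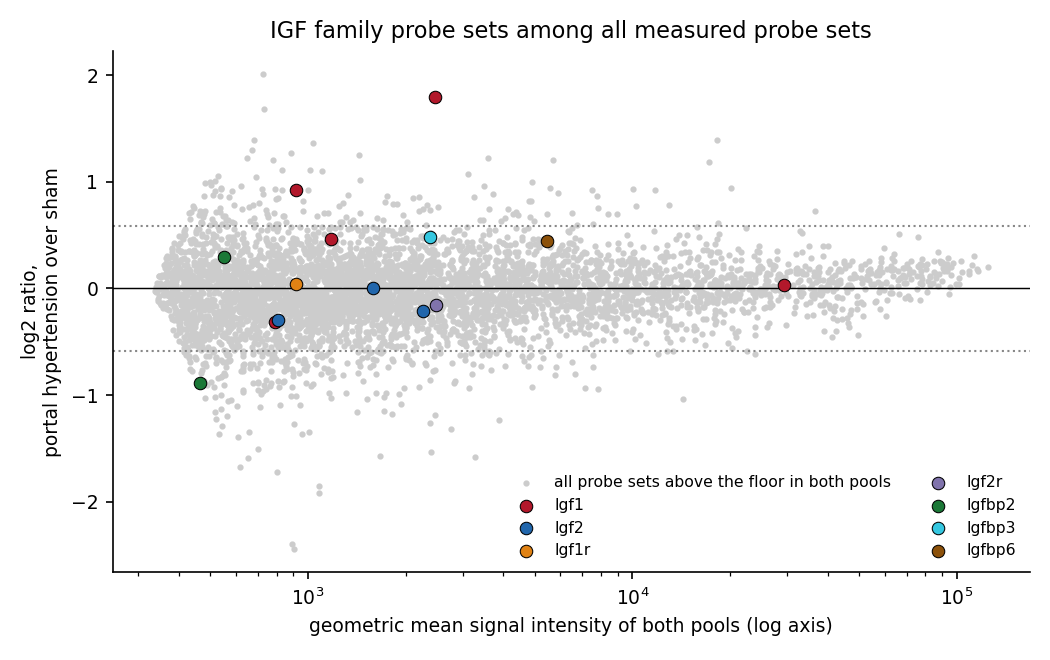
Log2 ratio of portal hypertensive over sham signal against the geometric mean signal of both pools (log axis) for the 4960 measured probe sets (grey), with the 14 measured IGF family sets coloured by gene and dotted lines at 1.5-fold. The Igf1 sets lie both inside the grey cloud and, for X06107_r_at at 1.80, at its upper edge.

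A wider list of genes of IGF, insulin and growth hormone signalling had a median gene value of -0.06, which turned to 0.02 with the floor set at the 60th percentile. The list held 49 genes of related receptors and hormones, receptor substrates, adaptors, kinases and growth hormone signalling, 36 of them on the array and 27 with a value, of which 11 were above 0 and 16 below. None was at least 1.5-fold higher and 3 were at least 1.5-fold lower in the portal hypertensive pool, where 8.18% of all genes passed 1.5-fold in either direction. Eif4e, which encodes the cap-binding translation factor, gave 3557 in the portal hypertensive pool and 6730.4 in the sham pool, a log2 ratio of -0.92 from 1 probe set. Insrr, the gene of an insulin receptor-related receptor, gave 2180.4 in the portal hypertensive pool and 3530.2 in the sham pool on 1 of its 5 probe sets, the other 4 being below the floor. Stat5a, a transcription factor gene of growth hormone signalling, was above the floor only in the sham pool, with 284 in the portal hypertensive pool and 569.1 in the sham pool, at least 1.72-fold lower in the portal hypertensive pool. The other Stat5a probe set, U24175_at, was below the floor and went the other way, with 212.1 in the portal hypertensive pool and 91.4 in the sham pool. Each of the 3 rests on a single probe set.

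The receptors and substrates nearest to the family were closer between pools. Insr, the insulin receptor gene, gave 393.9 in the portal hypertensive pool and 436 in the sham pool. Irs1, the substrate shared by the insulin and IGF-I receptors, gave 446.8 and 332.2, in the same order and barely above the floor, a log2 ratio of 0.43, and all 4 probe sets of Irs2 were below the floor. Grb10, an adaptor that restrains both receptors, gave 6475.6 in the portal hypertensive pool and 4892 in the sham pool, a log2 ratio of 0.40. Ghr, the growth hormone receptor, through which growth hormone drives Igf1 transcription in liver, had log2 ratios of 0.32, 0.42 and -0.85 on its 3 probe sets. The negative one came from Z83757mRNA_g_at, with 349.2 in the portal hypertensive pool and 631.5 in the sham pool, so Ghr, like Igf1, was not uniform across its probe sets. Rps6, the ribosomal protein that the pathway's kinase phosphorylates, had 0.02 and 0.15.

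Proteases that process IGF or its binding proteins, with other partners of the family, had a median gene value of 0.05, which turned to -0.07 under a 20th percentile floor and with no floor. Of 42 such genes, 28 were on the array and 21 had a value, 12 above 0 and 9 below. At 1.5-fold, which 8.18% of all genes passed, 1 was higher and 2 were lower in the portal hypertensive pool. Vtn, the matrix protein vitronectin, which can bind IGF and its complexes, was the higher one, with 604.8 in the portal hypertensive pool and 369.1 in the sham pool. Of the lower ones, Stc1, whose product stanniocalcin 1 can inhibit a protease of IGFBP-4, was above the floor in the sham pool only, with 242.2 in the portal hypertensive pool and 621.3 in the sham pool, at least 1.88-fold lower in the portal hypertensive pool. Furin, a proprotein convertase able to cleave IGF precursors, was the other lower one, with a gene value of -0.59 over a pair of probe sets that disagreed, at -1.29 and 0.11. Igfals, the acid-labile subunit that joins IGFBP-3 and IGF in the blood, had -0.35, 0.19 and 0.18. Ctsb, a lysosomal protease gene, had 0.41, and Itgb1, an integrin gene, had -0.12. Fn1, the fibronectin gene, had 0.15 on its probe set of highest signal and -0.24 on the other measured set. A further Fn1 set, above the floor in the portal hypertensive pool only, had at least 0.46. Ccn1, a matrix protein with a domain like that of the binding proteins, was below the floor, and no probe set was named for Ccn2.

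The pools also differed in markers of cells known to express IGF family genes. In pooled tissue, a higher share of a cell type and more RNA per cell cannot be told apart. Smooth muscle markers marked both pools as muscular artery: all 7 on the array were measured, with summed signals of 276378 in the portal hypertensive pool and 280895 in the sham pool and a median log2 ratio of -0.10. Adipocyte markers were above 0 in 6 of 7 genes with a value, with a median of 0.34 and summed signals of 95123.5 in the portal hypertensive pool and 63145.9 in the sham pool. Scd, a desaturase gene, passed 1.5-fold, Lep had -0.21, and Plin1 was below the floor. Scd weighed heavily in the difference of the sums, with 29482.1 in the portal hypertensive pool and 11225.1 in the sham pool. Macrophage markers were above 0 in 5 of 6, with a median of 0.45 and sums of 55788.8 in the portal hypertensive pool and 44773.9 in the sham pool, with Fcgr2b past 1.5-fold, Cd14 at -0.14 and Csf1r below the floor. Fibroblast markers were above 0 in 7 of 8, with a median of 0.22 and sums of 277729 in the portal hypertensive pool and 245582 in the sham pool. Postn passed 1.5-fold, Lum had -0.17, and the fibroblast median was smaller than the probe set scatter of 0.30. Mast cell markers were above 0 in 4 of 5, with a median of 0.16. Their sums were 17481.9 in the portal hypertensive pool and 10371.5 in the sham pool. The protease genes Cma1 and Cpa3 were 2.30-fold and 1.76-fold higher, whereas Tpsb2 had -0.37 and Tpsab1 had 0.10. Fcer1a, at 0.16 or more, was above the floor in the portal hypertensive pool only, and Ms4a2 was below it in both pools. The summed signals of these 4 lists were higher in the same pool as Igfbp3, Igfbp6 and 4 of 5 Igf1 probe sets. Of those Igf1 sets, M15481_g_at was nearly level, at 0.03. In each of these 4 lists 1 or 2 genes passed 1.5-fold, against 8.18% of all genes. The direction was not particular to them. Hepatocyte sums were 1922.8 in the portal hypertensive pool and 1901.7 in the sham pool, and mesothelial sums 500 and 345, in the same order. Smooth muscle and endothelial sums were lower in the portal hypertensive pool. The part of these cell types in the family's differences was not tested. Endothelial markers had a median of -0.10 over 5 genes, with Edn1 1.54-fold higher in the portal hypertensive pool and Vwf and Kdr below the floor in both pools. Icam2 was 2.18-fold lower on 1 probe set, at 364.7 in the portal hypertensive pool, close to the floor. Nos3 had a gene value 1.72-fold lower, but its measured probe sets disagreed, at -0.78, -1.20 and 0.25. In the smooth muscle list Kcnmb1 was 1.61-fold lower, the median of probe sets at -1.04 and -0.33. The hepatocyte list had a median of -0.24 over 5 genes, with Alb at 0.28. Cyp2c11 was at least 2.68-fold lower on 1 of its 3 probe sets, which was above the floor in the sham pool only. The mesothelial list had a value for 1 gene, Krt18, at 0.54. These lists were drawn up with results of these arrays known and are given as description.

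**Figure D4:**
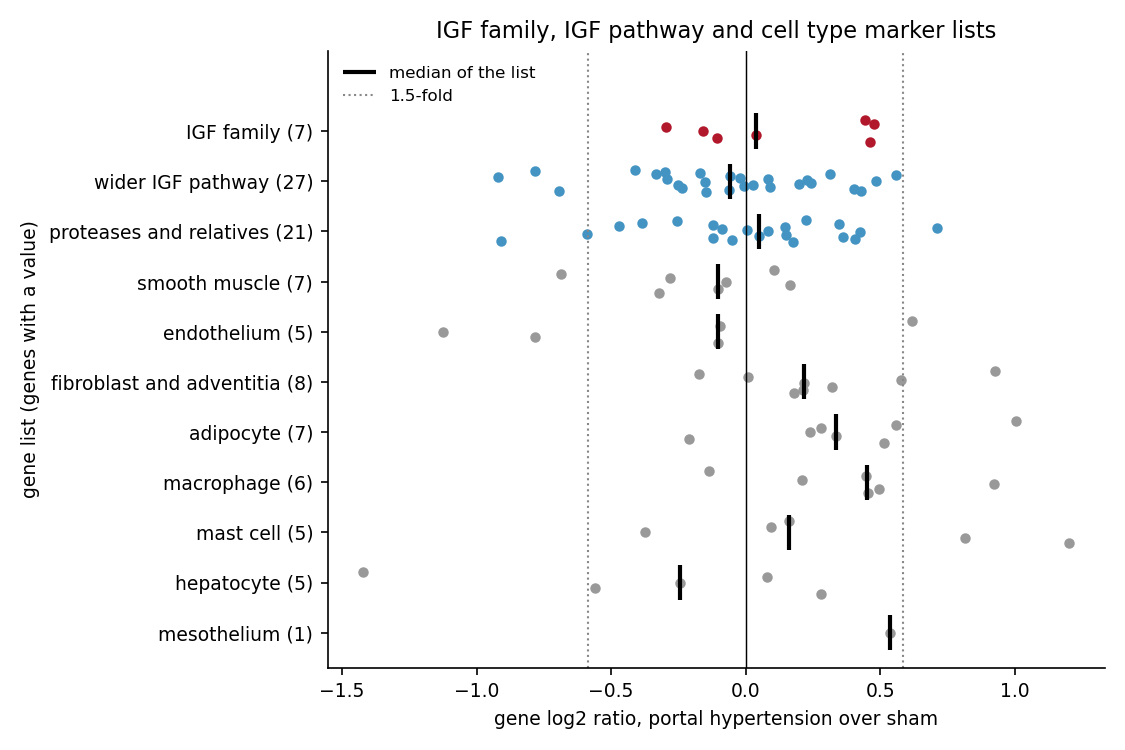
Gene log2 ratios of portal hypertensive over sham signal for the IGF family (red), 2 lists of related genes (blue) and 8 lists of cell type markers (grey), with the list median as a black bar and 1.5-fold as dotted lines. The IGF family's 7 genes run from -0.30 to 0.48 around a median of 0.04, and the medians of the adipocyte and macrophage lists lie at 0.34 and 0.45.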

How the data were processed

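RNA pooled from 20 rats per group was hybridized to 1 RG_U34A array each, per the labels and file headers. The authors deposited a linear signal intensity for every probe set on each array. Trimmed means (lowest and highest 2% left out) of 2504.38 and 2504.33 in the portal hypertensive and sham columns show a common scaling, whose software and target no label or header states. Values were used as deposited, set to the floor where lower, and log2 ratios taken as portal hypertensive over sham. A gene's value was the median over its probe sets with at least 1 pool above the floor.

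Gene names came from the platform annotation (7018 with 1 symbol, 308 with several, 1473 with none). RefSeq identifiers changed 0 symbols. Family genes were all described. From the related lists, genes at least 1.5-fold apart, the 3 of highest signal and Insr, Irs1, Irs2, Ghr, Igfals, Ccn1 and Ccn2 were named. With 2 samples no gene could be ranked by likeness of pattern. Members and lists were chosen with earlier results of these data known. Comparisons of probe set spread, pairs and signal classes, the promoters shown and the marker genes named were chosen after seeing values. The code (Python 3.11.15, numpy 2.4.6, pandas 2.3.3, statsmodels 0.14.6 for loess) was tested on simulated data. Alternatives varied the scaling, floor, suffixed probe sets and gene summary.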

Additional observations from a re-analysis of the deposited data

How the results depend on the processing

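Under 9 alternatives, 107 of 123 values moved by less than 0.30 on the log2 scale or, for counts, stayed within 1.5 times, and 16 moved further. Igf2, Igf1r, Igf2r, Igfbp3 and Igfbp6 kept their sign wherever they had a value. Igf2 ran from -0.29 to -0.004, Igfbp3 from 0.33 to 0.53 and Igfbp6 from 0.44 to 0.47. Igfbp3 and Igfbp6 each had 1 measured probe set, without a suffix. The 20th and 60th percentile floors and the settings of suffix and gene summary therefore had to return the same value for both. Their narrow ranges do not show that these ratios would repeat. Igf1 came to 0.93 with suffixed probe sets left out and to 0.033 with the probe set of highest level. Igfbp2 turned to 0.29 under both of these and under a 20th percentile floor, and to 0.27 with no floor, log2(value + 16). By construction these settings keep other probe sets. The family median was 0.37 over 8 genes under the 20th percentile floor and 0.44 over 5 genes without suffixed sets. In each case 1 family gene was past 1.5-fold, Igfbp5 in the first and Igf1 in the second. Among all genes, 634 of 4193 passed it in the first and 229 of 2816 in the second. The medians of the related lists changed sign under some floors: the pathway list at 0.018 under the 60th percentile floor, and the protease list at -0.069 under the 20th percentile floor and -0.068 with no floor. Over all genes, 274 passed 1.5-fold and 37 passed 2-fold as reported. These were 634 and 185 under the 20th percentile floor, 109 and 13 under that at the 60th, and 802 and 298 with no floor. Igf1r, Igf2r and Igfbp2 had no value under 1 alternative each. Low signal limits Igfbp1 and Igfbp5: with no floor their values were 0.21 and -0.07. No paired analysis was possible because each group has 1 array.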
